A study of Mus musculus with 8 samples.

Results

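Of 34610 protein-coding and lncRNA genes of the mouse, 2835 had R-loop peaks listed in aged but not in young haematopoietic stem cells. Pxylp1, Patl1, Abhd6, Treml2, Sumo3, Col18a1, Sos2 and Fosl2 are 8 of these. They were chosen from the peak lists themselves, as genes with an aged peak of high fold and no young peak inside the gene or within 1 kb of it. Every value of an aged peak below is therefore a description of the choice, and no test between the ages was run. The series holds 8 samples of bone marrow stem cells sorted as Lineage-, Sca1+, cKit+ and CD34-. In each age, Young and Aged, 2 libraries were immunoprecipitated with the S9.6 antibody against DNA:RNA hybrids and 2 were input without antibody. The age in months, strain, sex and number of mice are not stated in the labels, and no treatment was applied to either age. Of these libraries the deposited results are 4 peak lists, the forward and the reverse strand of each age, with replicates combined. A peak list carries no expression level, so the sorted cell type was not checked against marker genes, and no spread between replicates can be given.

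An R-loop is a stretch where RNA pairs with the DNA strand it was copied from and leaves the other DNA strand single. R-loops form readily where the transcript is rich in G and where transcription stalls, and cells remove them with RNase H and helicases because persistent ones can interfere with replication. The strand-specific method keeps forward and reverse signals apart. A transcript from a single direction can therefore appear in 1 list without the other.

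Pxylp1 encodes a phosphatase that acts on xylose in the linker joining glycosaminoglycan chains to core proteins. Col18a1 encodes a basement membrane collagen that is the source of endostatin. Abhd6 encodes a monoacylglycerol lipase that breaks down an endocannabinoid, and Treml2 a cell surface receptor of the TREM family. Sos2 encodes an exchange factor that loads RAS with GTP, and Fosl2 the AP-1 subunit Fra-2. Patl1 encodes a scaffold of mRNA decapping, and Sumo3 a small ubiquitin-like modifier. Their gene bodies ran from 12.2 kb (Sumo3) to 114 kb (Col18a1), with a median of 43.3 kb, against 28.4 kb for all genes with an aged and no young peak and 12.8 kb for all genes.

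The promoter sequences of Fosl2 and Sos2 are shown because these genes hold the peaks nearest to a gene start, an aged peak at Fosl2 and a weak young peak outside Sos2. The 250 bases before each start are given 5′ to 3′ on the strand of the gene, from RefSeq (GRCm38.p6), with runs of GGG or longer in capitals. The Fosl2 bases lie on the plus strand at chr5:32136222-32136471 and the Sos2 bases on the minus strand at chr12:69681853-69682102.
Fosl2: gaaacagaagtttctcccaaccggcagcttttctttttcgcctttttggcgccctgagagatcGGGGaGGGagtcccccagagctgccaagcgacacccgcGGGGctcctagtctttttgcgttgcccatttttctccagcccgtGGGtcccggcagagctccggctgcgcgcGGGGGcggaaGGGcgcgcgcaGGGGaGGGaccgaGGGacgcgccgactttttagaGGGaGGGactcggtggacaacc
Sos2: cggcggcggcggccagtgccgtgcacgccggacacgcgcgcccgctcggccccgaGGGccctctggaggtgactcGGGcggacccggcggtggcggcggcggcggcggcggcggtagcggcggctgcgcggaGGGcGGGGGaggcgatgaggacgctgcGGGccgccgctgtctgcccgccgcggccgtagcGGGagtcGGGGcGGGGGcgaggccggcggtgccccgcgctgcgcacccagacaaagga
GC made up 64.4% of the Fosl2 bases and 82.8% of the Sos2 bases, where the median of 32851 RefSeq promoters was 52.4%. The Sos2 value lay above 99.5% of these promoters, and the Fosl2 value above 81.6%. The Fosl2 sequence held 11 non-overlapping GGG and the Sos2 sequence 8, against a median of 4. At least 1 GGG on the gene's strand was found in 94.0% of promoters, so its presence does not set these genes apart. GC skew, the excess of G over C divided by their sum, was 0.08 at Fosl2 and 0.17 at Sos2, with a median of 0 over all promoters. The bases under the peaks themselves were not analysed here.

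The 8 genes held 17 aged peaks and no young peak. An aged and no young peak was found in 8.19% of all genes, and the reverse, a young and no aged peak, in 12.0%. Among genes with an aged peak, 51.0% had no young peak, so the absence of a young peak alone is common, and it is the strength of the aged peak that sets these genes apart by construction. An aged fold of 10 or more without a young peak was found in 61 genes (0.176%), and a young fold of 10 or more without an aged peak in 9 genes (0.026%). The fold is the authors' own value, the signal at the summit over the local background. Of 16028 aged peaks on the main chromosomes 413 had a fold at or above that of the weakest of the 8 genes, and of 23833 young peaks 148 did.

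By their strongest fold Pxylp1 ranked first among the 2835 genes with an aged and no young peak. Patl1, Abhd6, Treml2 and Sumo3 ranked 3, 4, 5 and 6, Col18a1 and Sos2 ranked 12 and 13, and Fosl2 shared rank 30. The genes at the ranks between are not described here. At the weak end Fosl2 had a fold of 11.25, and the genes next below it had 11.243. The strongest folds ran from there to 51.4, with a median of 19.9, where the median over all aged peaks was 4.73.

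**Figure D1:**
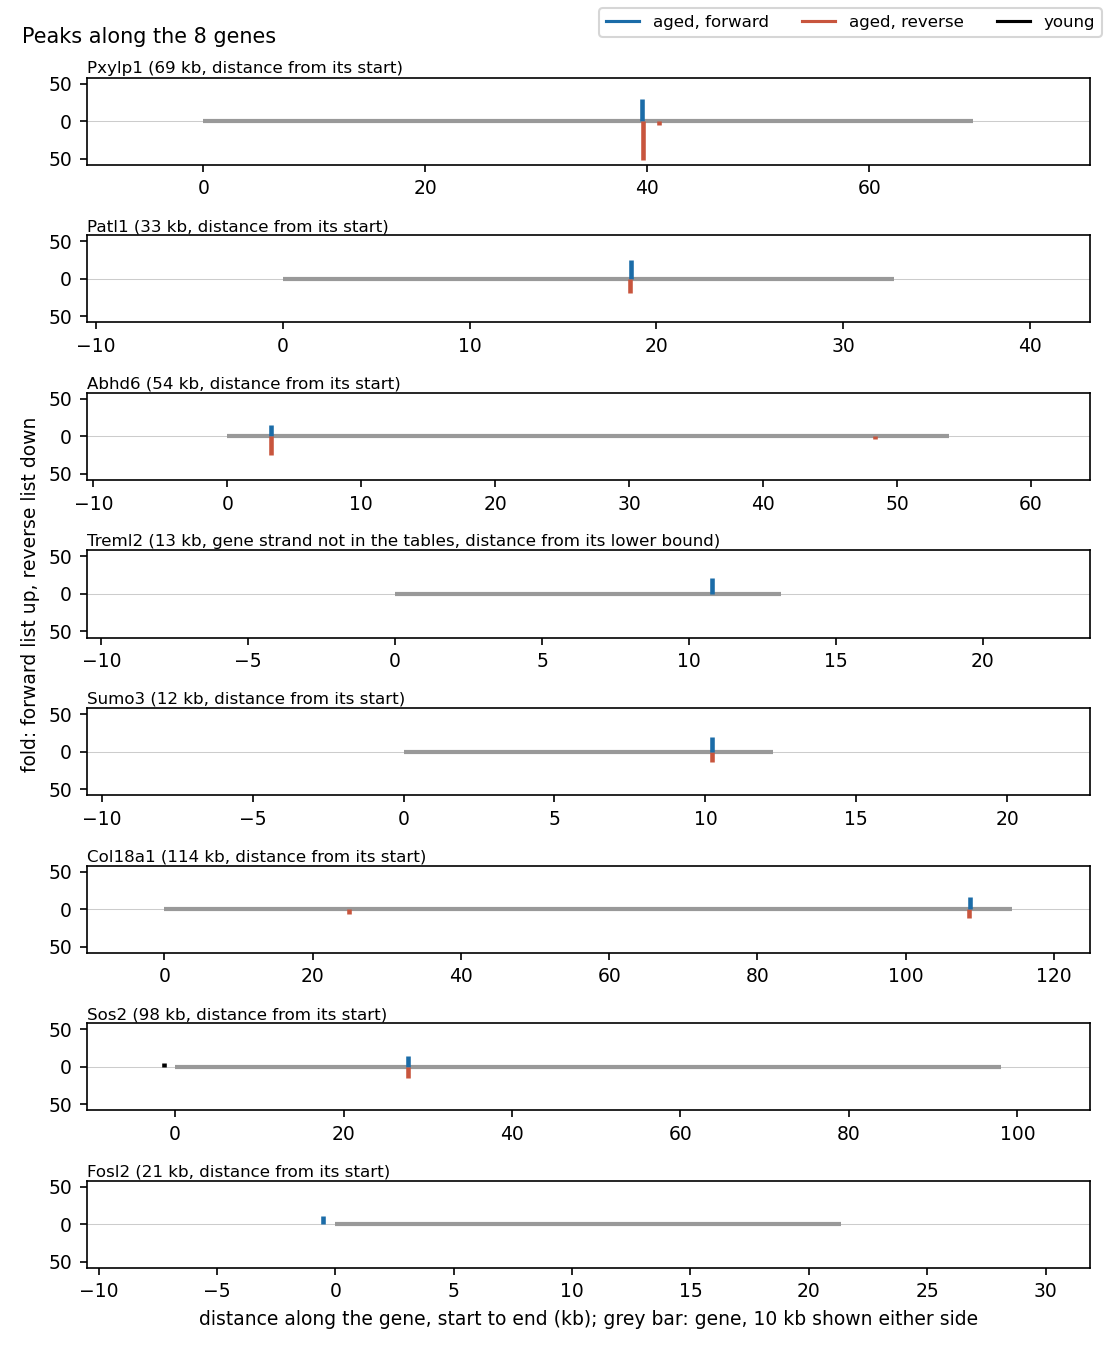
Each panel plots the peaks of a gene against distance in kb, with the gene as a grey bar read from its start (Treml2 from its lower bound). The line height is the authors' fold, forward list upwards and reverse list downwards, aged in colour and young in black. In 6 genes an upward and a downward line stand at the same place, and the single young peak lies before the start of Sos2.

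The genes whose strongest peak had many reads over a raised background were Pxylp1, Sos2 and Abhd6. Reads at a summit and the local background were recovered from the fold and −log10 p of each peak, and reads are not molecules. The Pxylp1 site on chromosome 9 had 568 reads over a background of 18.5 on the forward strand (96853021 to 96853202, fold 29.2). On the reverse strand it had 179 reads over 2.5 (96853022 to 96853202, fold 51.4). The strand with more reads thus had the lower fold, because its background was also higher. Both peaks ended at the same base and began 1 bp apart, and the reverse peak was 181 bp wide, the narrowest width listed for any aged peak. That width was shared by 1.89% of all aged peaks. The site lay 39.6 kb inside the 69.4 kb gene and 36372 bp from its listed start, and a further reverse peak of 10 reads lay 1.45 kb away.

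Sos2 (chromosome 12) had the reverse order of its strands. The reverse peak held 334 reads over a background of 21.5 (69654059 to 69654343, fold 14.9), and the forward peak 62 reads over 3.5 (69654056 to 69654274, fold 14). The background of the reverse peak was 31.2 times the genome level, so a fold of 14.9 stood for more reads than at any other reverse peak of the 8 genes. The site lay 27.7 kb from the gene start. At Abhd6 (chromosome 14) the strands were closer, with 73 reads on the reverse (8006018 to 8006202, fold 24.7) and 45 on the forward strand (8006015 to 8006202, fold 15.3). The background was 2 reads on each. This site lay 3279 bp from the Abhd6 start, and a weak reverse peak of 5 reads lay near the other end of the gene.

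Over the whole aged lists 14.1% of peaks had a background above 2 times the genome level. The share was 34.6% among the 413 aged peaks with at least the fold and reads of the Fosl2 peak. Among the 124 of these with no overlapping young peak it was 12.1% (15). The strongest peaks of the 8 genes belong to those 124, and 3 of the 8 were of this kind, a larger share. This difference was not tested. The reverse peak of Col18a1, with the lower fold of its site, also had a raised background, 3.62 times the genome level. At Pxylp1, Sos2 and Col18a1 the strand with more reads also had the higher background. At Sumo3 it had the slightly lower one, 1 against 1.09. The background was 2 reads on each strand at Abhd6 and at the genome level on each at Patl1. The part of a raised background in the peaks was not tested.

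Patl1, Sumo3 and Col18a1 also had a peak on each strand, with fewer reads. The Patl1 site (chromosome 19) had 42 forward reads (11930809 to 11931141, fold 25.5) and 30 reverse reads (11930816 to 11931135, fold 18.3), each over the genome level of 0.689 or 0.690 reads. It lay 18.6 kb from the gene start, inside the 32.7 kb gene. The genome level is the lowest background in each list, so the local background was raised on neither strand of this site.

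At Sumo3 (chromosome 10) there were 37 forward reads over 1 (77616221 to 77616525, fold 19) and 27 reverse reads over 1.09 (77616210 to 77616526, fold 13.4). This site lay 10.2 kb from the start of the 12.2 kb gene and 2028 bp from its end. The nearest of the 3 listed starts of Sumo3 was 2594 bp away. The Col18a1 site had 26 forward reads over the genome level (77057695 to 77058036, fold 16.0). Its reverse peak had more reads, 39, but a lower fold of 11.4, over a background of 2.5 (77057677 to 77058040). This site lay 5644 bp from the end of the 114 kb gene, and 55883 bp from the nearer of its listed starts. In Col18a1 a further reverse peak of 9 reads lay 24.9 kb from the start.

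Col18a1 and Sumo3 are neighbours at larger scale, with summits 558 kb apart on chromosome 10. Between the sites lay 3 aged and 2 young peaks, with at most 9 aged and 8 young reads. The interval thus held no other peak near the strength of either site.

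Treml2 and Fosl2 had a single forward peak each and none on the reverse strand within 1 kb of it. The Treml2 peak (chromosome 17, 48310026 to 48310881) had 34 reads over the genome level and a fold of 20.7. It was 856 bp wide, 3.91 times the median aged width of 219 bp, with its summit 137 bp from its lower bound. Peaks of this width or more made up 0.43% of all aged peaks and 4.36% of the 413 strong ones. The summit lay 2371 bp from the upper bound of the 13.1 kb gene, whose strand is not in the tables used.

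The Fosl2 peak (chromosome 5, 32135800 to 32136045) had 18 reads over the genome level and a fold of 11.25. It was the only strongest peak outside its gene and the only one within 1 kb of a gene start, with its summit 519 bp before the start of Fosl2. The peak ended 427 bp before that start and 177 bp before the promoter bases printed above. With an exact 95% Poisson interval of 10.7 to 28.4 on its 18 reads, it was also the least precisely measured. At the other extreme the 334 reverse reads of Sos2 had an interval of 299 to 372. These intervals cover counting error only.

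**Figure D2:**
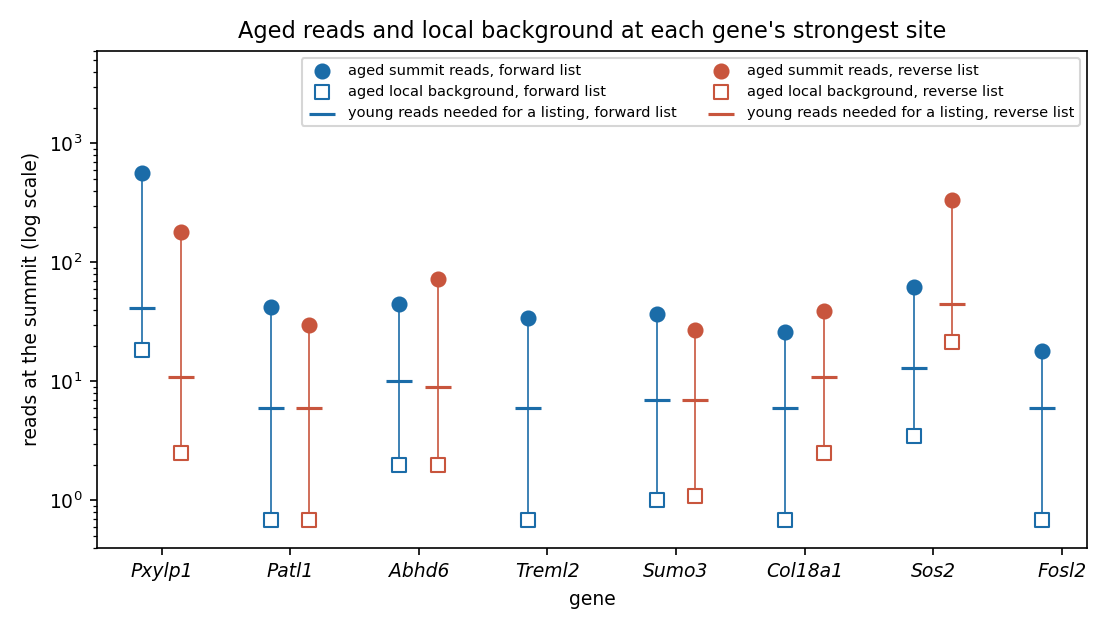
The plot gives reads on a log scale for the strongest site of each gene, with filled circles for aged summit reads, open squares for the aged local background and dashes for the reads a young summit would have needed to be listed at a matched background. Blue stands for the forward and red for the reverse list. Every circle stands above its dash. Aged reads scaled for depth, which are not drawn, exceeded the needed reads 3.58 times at Fosl2 and more at the other genes. This follows from the choice of genes with a high aged fold.

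Peaks on both strands were the common form. The strongest peak of 6 of the 8 genes overlapped an aged peak of the other strand, against 8.78% of all aged peaks and 70.0% of the 413 aged peaks of at least the Fosl2 fold and reads. Among the 124 of these with no overlapping young peak it was 52.4% (65). The members' count is thus near that of all equally strong peaks and above that of those without a young peak. With 8 genes this difference was not tested. In 5 of these 6 genes the bounds on the strands agreed within 20 bp at each side, and at Sos2 the upper bounds were 69 bp apart. Among the strong peaks with a partner on the other strand, 128 of 289 (44.3%) had both bounds within 20 bp. Summits on the strands lay 6 bp (Sumo3) to 35 bp (Patl1) apart in 5 genes and 162 bp apart at Col18a1. The 3 weak additional peaks, at Pxylp1, Abhd6 and Col18a1, had no partner.

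Read numbers differed between the strands of a site. The strand with more reads had 1.37 times those of the other at Sumo3, 1.40 at Patl1, 1.5 at Col18a1 and 1.62 at Abhd6. The ratio was 3.17 at Pxylp1 and 5.39 at Sos2. Pxylp1 and Sos2 had the widest gap between the backgrounds of the strands too, and the strand richer in reads was also the one richer in background. Col18a1 shared this order and Sumo3 did not.

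**Figure D3:**
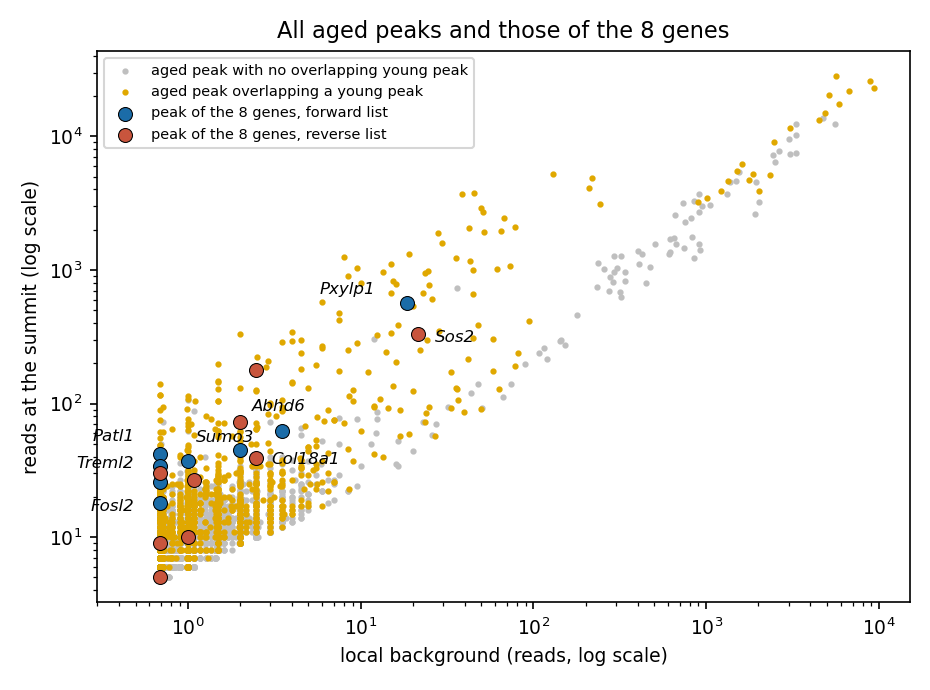
Summit reads are plotted against local background for all aged peaks whose reads were recovered, both on log scales, with yellow for peaks overlapped by a young peak and grey for the others. Large circles are the 17 peaks of the 8 genes. Pxylp1 and Sos2 stand at the upper right of them, among peaks that mostly overlap a young peak, while Patl1, Treml2 and Fosl2 stand at the genome background.

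The promoter table gives the strand of 7 of the genes. Patl1, Abhd6, Sumo3 and Fosl2 lie on the plus strand, and Pxylp1, Col18a1 and Sos2 on the minus strand. The list with the higher fold was the forward list for a plus gene or the reverse list for a minus gene in 5 of the 7, with Abhd6 and Col18a1 the other way round. Across 4348 genes with an aged peak and a known strand the share was 54.5%, and among the 29 with no young peak and at least the fold of Fosl2 it was 62.1% (18). Which strand of DNA the forward list stands for is not given in the sources used here, so this pairing cannot be read as sense or antisense. The number of genes limits the precision of this share.

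Along the genes the strongest sites had no common place. Measured from the gene bound at the start, the summit lay at 6.09% of the gene length in Abhd6, 28.2% in Sos2, 56.9% in Patl1, 57.1% in Pxylp1, 83.4% in Sumo3 and 95.1% in Col18a1. Some genes have further listed starts inside these bounds. The nearest listed start was 519 bp from the summit at Fosl2, 2594 bp at Sumo3 and 3201 bp at Abhd6. It was 18617 bp away at Patl1, 27654 bp at Sos2, 36372 bp at Pxylp1 and 55883 bp at Col18a1. No other protein-coding or lncRNA gene covered any of the 8 summits. Exons and introns were not analysed here.

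No young summit lay within 10 kb of the strongest aged sites. The choice allowed no young summit inside a gene or within 1 kb of it, so part of each distance was fixed by the choice. The nearest young summit on either strand was 21.2 kb away at Col18a1, 27.7 kb at Treml2, 29011 bp at Sos2, 50.2 kb at Abhd6, 66.8 kb at Patl1, 96.0 kb at Pxylp1, 98.1 kb at Sumo3 and 130 kb at Fosl2 (129517 bp). The median of all aged peaks was 30.2 kb, but those peaks were not chosen for lacking a young peak. These nearest young peaks were weak, with 6 to 9 reads and folds between 3.5 and 5.48. A single young peak lay within 10 kb of a gene: a forward peak 1357 bp before the start of Sos2 (69682798 to 69683287), with 8 reads over 1 and a fold of 4.5. It began 696 bp upstream of the Sos2 promoter bases shown above.

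Within 100 kb of the 8 sites there were 0 to 2 further aged and 0 to 3 young peaks per gene, with at most 10 aged and 13 young reads. The medians over all aged peaks, which were not chosen for lacking a young peak, were 1 aged and 2 young. The highest fold among these neighbours was 5.92 in aged and 6.04 in young, and Fosl2 had none of either age.

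The depth of the young lists bears on what a missing young peak can mean. The lowest number of reads listed over the young genome background was 6, which gave a fold of 3.84 in the forward list and 3.835 in the reverse list. The genome background was 0.823 and 0.825 in young and 0.689 and 0.690 in aged, a young to aged ratio of 1.19 forward and 1.20 reverse. If a young site had the background of the aged one, scaled by this ratio, the lowest −log10 p listed in young would have been reached with 6 reads at Patl1, Treml2 and Fosl2. On the forward and reverse strand it would have taken 7 and 7 reads at Sumo3, 10 and 9 at Abhd6, 6 and 11 at Col18a1, 41 and 11 at Pxylp1, and 13 and 45 at Sos2.

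The aged reads, scaled in the same way, exceeded these numbers 3.58 times at Fosl2 to 19.5 times on the reverse strand of Pxylp1. The genes were chosen for a high aged fold, so this excess follows from the choice. The local background of the young libraries at these sites is unknown, since no young peak was listed there. A young signal below the needed number may be present, and no young level of 0 is shown.

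**Figure D4:**
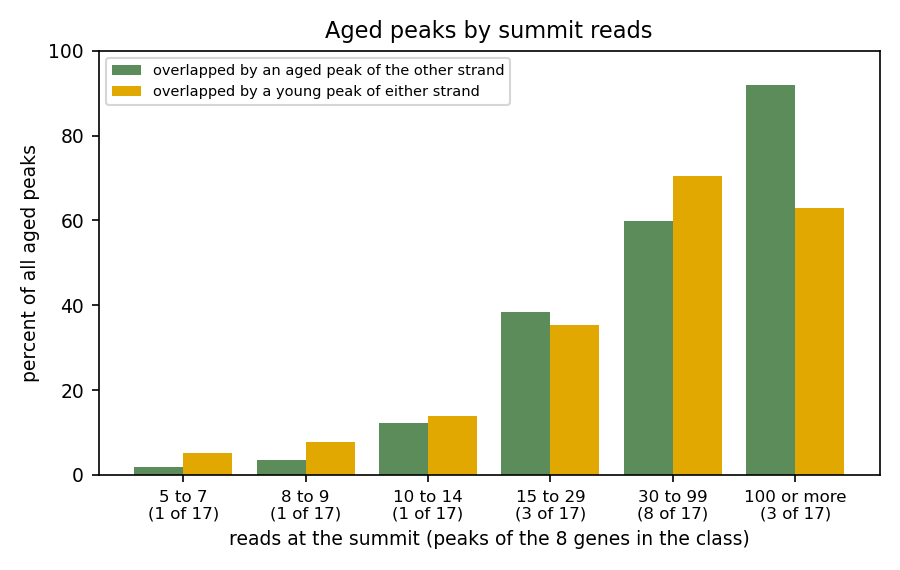
Bars give the percent of all aged peaks overlapped by an aged peak of the other strand (green) and by a young peak of either strand (yellow), by reads at the summit. The number of the 17 peaks in each class stands under the axis. Both shares are at most 13.8% below 15 reads, and 70.5% of peaks with 30 to 99 reads met a young peak, a class that holds 8 of the 17.

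Among aged peaks of like strength a young counterpart was usual. Of the 413 aged peaks with at least the fold and reads of the Fosl2 peak, 70.0% overlapped a young peak on either strand, and 124 did not. In those 124 the other strand held a peak in 52.4%, the background was raised above 2 times the genome level in 12.1%, and a young summit lay within 10 kb in 13.7%. Genes with a peak in both ages reached the fold of Fosl2 more often, 137 of 2725 (5.03%), than genes with an aged peak only, 34 of 2835 (1.2%). Genes that overlap can share a strongest peak, so these were 130 and 32 peaks. A partner on the other strand was found for 63.1% (82) with a peak in both ages against 59.4% (19) in aged only, and a raised background in 27.7% (36) against 15.6% (5). These differences were not tested, since each list is a single combined sample.

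Of 57 related genes in 8 lists, an aged peak was found in 12 (21.1%) and a young peak in 15 (26.3%), beside 16.1% and 19.8% of all genes. An aged and no young peak was found in 4 (7.02%), near the 8.19% of all genes. Their strongest folds had a median of 4.74 in aged, the same as for all genes with an aged peak, and of 5.48 in young against 4.94. In the decapping list Patl2, the paralogue of Patl1, had the highest aged fold, 10.7 with 17 reads, and a young peak of fold 3.835 with 6 reads. The RNA helicase gene Ddx6 (6.5) and the decapping cofactor gene Dcp1b (4.74) had an aged peak only. Dcp1a (6.03) and Lsm1 (5.48) had a young peak only, and 10 of 15 had none.

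Sos1, the paralogue of Sos2, had an aged peak of fold 3.5 with 6 reads and no young peak. The adaptor gene Shc1 (4) and the RAS GTPase activator gene Rasa1 (5) had a young peak only. In the AP-1 list Batf2 had peaks in both ages, with folds of 4.06 in aged and 5 in young. Jun (6.03) and Batf3 (4.94) had a young peak only, and the other 7 genes had none.

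Of the 7 other collagen genes of the basement membrane list, 5 had peaks in both ages. Col15a1, the closest relative of Col18a1, had folds of 4.74 in aged and 4.8 in young. Col4a2, Col4a3, Col4a4 and Col4a6 also had peaks in both ages, Col4a5 had one in aged only (4.41), Col4a1 had none, and the highest of these folds was 6.57, in young Col4a3. In the linker synthesis list Xylt1 had 3.6 in aged and 6.03 in young, B4galt7 had 5.71 in young only, and 4 genes had no peak. No peak lay at the 5 relatives of Abhd6 in endocannabinoid turnover or at the 5 found of the TREM list. None of these relatives reached the aged fold of Fosl2. Only 1.2% of genes with an aged peak only and 5.03% of genes with a peak in both ages did, so this does not set the relatives apart. Apart from the aged Patl2 peak the strongest peaks of the relatives held 6 to 12 reads.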

How the data were processed

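Strand-specific DNA:RNA immunoprecipitation sequencing was done on 8 samples. Per the submitters' processing notes reads were handled with MACS3 3.0.0b1, deepTools 3.5.1, Bowtie2 2.4.4 and Trim Galore on GRCm38. For the settings, and for how replicates and inputs entered each list, nothing is given in the sources read. The authors deposited, for each peak, a fold (the ratio of signal to local background), a −log10 p, a −log10 q and an integer score, which is not used in the text.

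Members were summits within 1 kb of the RefSeq bounds (GRCm38.p6), and young summits were also sought within 10 kb. The 8 genes, the related lists and the comparisons were chosen with earlier results of these data known. The named genes are the members and those of the lists with a peak, and some list genes are not reported here. Whole reads were solved from fold and −log10 p, as MACS forms them (a pseudocount of 1 and a Poisson tail), and 99.99% of peaks in each list fell within 0.1% of the deposited −log10 p. On simulated data 100% of 1892 read numbers came back. Peaks overlapped from 1 bp. The reads needed for a young listing were solved from the lowest −log10 p of each young list. The files give no read totals, so the genome background stands in for depth. The lists are named as normalized, and what was normalized is not stated. The reads, their Poisson intervals and the scaling for depth take the signal as unscaled counts. No test was run. Alternatives were a −log10 q or fold of at least 5, gene windows of 0, 5 and 10 kb, equal list lengths, 50% reciprocal overlap, 1 kb extension, either strand, and the genome background. Base composition was planned for the peaks too, but only promoters were in the tables used. Scripts ran in Python 3.11.15 with scipy 1.17.1, pandas 2.3.3, numpy 2.4.6 and, for plots, matplotlib 3.10.9.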

Additional observations from a re-analysis of the deposited data

How the results depend on the processing

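All 8 genes kept an aged and no young peak at a −log10 q of at least 5, at a fold of at least 5 and with the same number of peaks from each list. These settings only remove peaks, so none could bring in a young peak, and the strongest aged peaks lay well above the cuts. The outcome was thus fixed by the choice of the genes. With no extension of the gene bounds 7 did, since the Fosl2 peak lies before the gene. With 5 or 10 kb also 7 did, since the young peaks of the 8 genes then numbered 1, the peak before Sos2. The aged peaks numbered 14 to 17 over the alternatives. The strand overlap stayed at 6 genes. No alternative gave an overlap with a young peak, and none could, since the nearest young summit was 21.2 kb or more away. Over the genome background the median fold was 24.0 in place of 19.9. The fold then rose to 198 at Sos2, 107 at Pxylp1 and 43.8 at Abhd6, so Sos2 moved from 7th to 1st by construction. No paired analysis was possible because the lists combine the replicates, and for the same reason no replicate could be left out. Few reads limit Fosl2 and the weak peaks most.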

Other observations

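Aged peaks with 100 reads or more over a background below 100, a class chosen after the values were seen, numbered 111, and 90.1% of them overlapped a young peak. Of the 11 that did not, 3 belonged to 2 of the 8 genes: both strands of the Pxylp1 site and the reverse strand of the Sos2 site. The genes were chosen to lack a young peak, so any peak of theirs in this class had to be among the 11. Without the limit on background, 63% of the 200 aged peaks with 100 reads or more overlapped a young peak, below the 70.5% of those with 30 to 99 reads, so the share in this class depends on that limit. The narrow form of the Pxylp1 and Abhd6 peaks, 190 bp or less, was shared by 27 of the 413 strong aged peaks (6.54%).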
